A study of Mus musculus with 32 samples.

Results

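The genes described here are 10 markers of the adrenal gland, followed through a comparison of Ftsj1-deficient (labelled Ftsj1_DF) and wild-type (WT) male mice aged 4 months. They are Star, Cyp11a1, Cyp11b1, Cyp11b2, Cyp21a1, Nr5a1 and Mc2r of the cortex and Th, Dbh and Pnmt of the medulla, 10 of 55289 named genes, matched by symbol in each of 5 deposited tables. They were chosen by their fold changes in the kidney table, where several were lower in deficient mice and many had a mean but no p. The values of that comparison are therefore given as a description, and no kidney test of these genes is used as support. The assay was degradome sequencing, in which an adapter joins the 5' ends of polyadenylated RNA that lacks a cap (input 5 ug of total RNA) and short tags are read from them, so a value counts uncapped 5' ends and not intact transcripts. Brain, heart, kidney and liver came from 3 deficient and 3 WT mice, and spleen from 4 of each genotype among 8 other mice, 32 libraries in all. Each library is 1 whole organ of 1 mouse, the mice include sets of brothers, no treatment was given, and how the deficiency was made is not given in the sources used here.

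The adrenal gland sits against the kidney and holds 2 endocrine tissues. Cells of the cortex import cholesterol into mitochondria through the Star protein, cut its side chain with Cyp11a1, and finish corticosterone and aldosterone with Cyp21a1, Cyp11b1 and Cyp11b2. Nr5a1, also called SF-1, is the transcription factor that drives these genes, and Mc2r is the receptor for the pituitary hormone ACTH. Chromaffin cells of the medulla make catecholamines from tyrosine in a chain in which Th acts first, Dbh makes noradrenaline and Pnmt makes adrenaline. Th and Dbh are also made by catecholamine neurons of the brain and by sympathetic neurons.

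For each gene a table holds 1 mean normalized count, taken across the organ's libraries, and a log2 fold change between genotypes with its standard error (SE), as the authors' DESeq2 comparison gave them. Values per library are not in these tables, so no spread over samples and no overlap between groups can be given, and the depth of each library is unknown. The table means summed to between 48536401 and 73405489 normalized counts. The direction of the fold change is not stated in the tables, and a value below 0 is read as lower in deficient mice because Ftsj1 was negative in all 5, from -1.56 ± 0.61 in kidney to -3.38 ± 0.59 in the liver-named table of the authors' deposited tables. Defining markers went against 2 table names. The 8 neuron markers summed to 1609 parts per 1000000 (ppm) in the liver table and 16.2 in the brain table, and the 8 hepatocyte markers to 235208.6 ppm in the brain table and 2681.2 in the liver table. These tables are called liver-named and brain-named below, and hold neural and hepatic RNA. The 10 kidney markers were highest in the kidney table at 9166.3 ppm, the 8 cardiomyocyte markers in the heart table and the 8 lymphocyte markers in the spleen table. In the table of spleen, 8 pancreatic acinar genes also summed to 147826.8 ppm.

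Promoters of Th and Dbh are shown because both genes encode enzymes of catecholamine synthesis and had unlike values in the kidney table. Whether the promoters bear on those values was not tested. The RefSeq promoter table used, of build GRCm38.p6 and with a chromosome left out, held 3 of the 10 genes, Th, Dbh and Cyp11a1. The 250 bases before the annotated start are printed 5' to 3', at chr7:142899996-142900245 on the minus strand for Th and chr2:27165257-27165506 on the plus strand for Dbh. Capitals mark matches to the cyclic AMP response element TGACGTCA and to AAGGNCA, a core of sites bound by Nr5a1, each searched on both strands.
Th: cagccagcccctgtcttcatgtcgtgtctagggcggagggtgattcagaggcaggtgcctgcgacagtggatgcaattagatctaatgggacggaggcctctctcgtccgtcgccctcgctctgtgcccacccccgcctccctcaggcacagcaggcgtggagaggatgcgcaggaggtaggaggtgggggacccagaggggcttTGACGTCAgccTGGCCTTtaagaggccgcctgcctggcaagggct
Dbh: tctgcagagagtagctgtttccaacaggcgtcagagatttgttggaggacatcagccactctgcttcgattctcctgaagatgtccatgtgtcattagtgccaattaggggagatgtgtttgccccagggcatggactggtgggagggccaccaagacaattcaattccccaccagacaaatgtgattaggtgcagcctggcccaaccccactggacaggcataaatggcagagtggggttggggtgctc
The Th window held TGACGTCA at 45 to 38 bases before the start and AAGGNCA on the other strand, as TGGCCTT, at 34 to 28 bases before it. Neither motif was found in the Dbh window or in the windows of the 2 annotated starts of Cyp11a1. Of the 32851 promoters of this length that were searched, 1.55% held TGACGTCA and 17.5% held AAGGNCA, so a match describes these letters and nothing about binding.

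Among the genes of steroid synthesis, Cyp11b1 was the one whose level was almost limited to a single table. Levels are given as ppm of the table's summed means, and are compared between tables for 1 gene at a time, since lengths that would allow a comparison between genes are not used here. Cyp11b1, the 11-beta-hydroxylase that makes corticosterone, stood at 8.46 ppm in the kidney table, 186 times the next level of 0.0454 in spleen, and at 0.0369 to 0.0454 in the 4 tables other than kidney. Its level in those 4 was 0.436% to 0.536% of the kidney level. That kidney level is a mean over both genotypes, and the deposited fold change implies 16.9 ppm in wild-type and 0.03 in deficient libraries. The fold change has no p, and its SE of 3.41 implies a wide spread between libraries. How many libraries carry the kidney level is therefore unknown. The spleen level rests on a mean of 2.21 normalized counts. Summed kidney tubule and glomerulus markers in the same 4 tables were at 0.215% to 0.449% of their kidney level. Cyp11b2, the aldosterone synthase and a close relative of Cyp11b1, was low everywhere, with 0.268 ppm in kidney and 0.0917 to 0.146 elsewhere. Short tags may be shared between these 2 genes, so their separate values are uncertain.

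Cyp21a1, steroid 21-hydroxylase, was high in 3 tables. It stood at 11.9 ppm in kidney, 8.63 in spleen and 4.30 in the brain-named table, against 0.488 in the liver-named table and 0.0508 in heart. Cyp21a2-ps, the pseudogene copy of Cyp21a1 whose tags may be shared with it, followed with means of 205 normalized counts in kidney, 128 in spleen and 394 in the brain-named table. The ratio of copy to gene was 1.25 in the brain-named table and between 0.236 and 0.481 in the other 4. Cyp11a1, the side-chain cleavage enzyme, was highest in kidney at 5.77 ppm, with 3.53 in the liver-named table, 1.07 in spleen, and 0.122 and 0.0801 in the brain-named and heart tables. Star differed less between tables than the other genes above apart from Cyp11b2, from 1.08 ppm in the brain-named table through 2.10 in heart and 5.64 in kidney to 7.44 in the liver-named table and 7.96 in spleen. The top 2 differed by a factor of 1.07, and their order turned on the scale of the mean normalized count, where the liver-named table was highest.

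In ppm, Nr5a1 did not have its highest level where the enzymes Cyp11a1, Cyp11b1, Cyp11b2 and Cyp21a1 had theirs. Nr5a1 was highest in spleen at 9.05 ppm, 10 times the heart level of 0.905, and was at 0.296 in kidney and 0.190 in the brain-named table. When the 50 highest genes of each table were left out of the total, Cyp21a1 was highest in spleen too. Mc2r was listed at 0 in all 5 tables. So were 6.86% of 21214 protein-coding genes matched by symbol, among them Actc1, a main actin of heart muscle, so the 0 of Mc2r is not read as an absence of its RNA.

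Each of the 3 catecholamine genes had its highest level in a different table. Th, tyrosine hydroxylase, stood at 52.0 ppm in the liver-named table, which holds neural RNA, and at 0.329 to 1.22 in the rest. Dbh, dopamine beta-hydroxylase, was highest in heart at 13.5 ppm, 5.32 times its level of 2.53 in the liver-named table, and was at 1.03 in kidney. Pnmt was highest in kidney at 1.26 ppm with heart close at 1.10, and was at 0.0306 to 0.212 elsewhere. When the 50 highest genes of each table were left out of the total, Pnmt was higher in heart than in kidney and Cyp21a1 higher in spleen than in kidney.

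**Figure D1:**
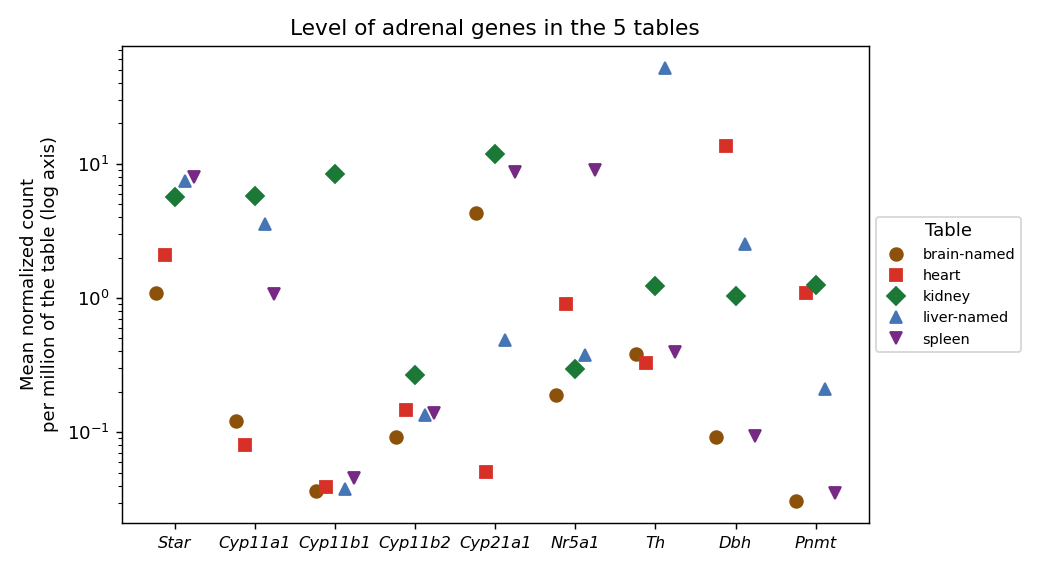
Mean level in ppm (log axis) for the 9 genes with a mean above 0, with 1 point for each of the 5 tables and no error, since each is a single deposited mean over 6 or 8 libraries. Cyp11b1 stands apart in the kidney table at 8.46, Th in the liver-named table at 52.0, Dbh in heart at 13.5 and Nr5a1 in spleen at 9.05. How many libraries carry the kidney level of Cyp11b1 is unknown.

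The comparison of deficient with wild-type mice outside the kidney found a single change among these genes. In the brain-named table, which holds hepatic RNA, Cyp21a1 fell, with a log2 fold change of -2.37 ± 0.48 (SE) in the authors' deposited table and an adjusted p of 0.00216. It was 1 of 3 genes of the set tested there, where 0.0795% of all 17619 tested genes were called lower and 0.414% in either direction. The mean of 316 normalized counts and this fold change imply 529 in wild-type and 102 in deficient libraries. Its pseudogene copy Cyp21a2-ps was at -1.40 ± 0.43 in the authors' deposited brain-named table (adjusted p = 0.104), which did not pass. C4a, next to Cyp21a1 in the RefSeq gene order, and C4b, a complement gene next to the pseudogene, were looked up after the values of Cyp21a1 were seen. They were at -1.13 ± 0.41 (adjusted p = 0.199) and -0.73 ± 0.45 in the authors' deposited brain-named table (adjusted p = 0.600), with means of 3420 and 33426.5 normalized counts. Pancreatic acinar markers were positive in this table for 8 of 8 genes, with a median log2 fold change of 4.34 and implied sums of 32751.2 in wild-type and 450222.9 in deficient libraries. Hepatocyte markers had 7 of 8 positive and a median of 0.40. Their part in the value of Cyp21a1 was not tested.

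Spleen, which came from other mice, gave a positive value that did not pass. Cyp21a1 was at 0.73 ± 0.65 in the authors' deposited spleen table, with implied means of 316 in wild-type and 525 in deficient libraries. The brain-named minus spleen difference in log2 fold change was -3.10 ± 0.81, and it did not pass over 16847 genes by a z test from the 2 standard errors (adjusted p = 0.112), where 0.0534% of genes passed. The other 12 such differences from spleen, Cyp21a2-ps included, had higher adjusted p-values, from 0.741 up, and of all genes 0.117% passed for heart and 0.0799% for the liver-named table. In the liver-named table the authors' deposited fold change of Cyp21a1 was -2.91 ± 1.52, without a p, at a mean of 33.25 normalized counts. In heart its mean was 2.56.

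The other genes of the set did not pass in the brain-named, heart, liver-named or spleen table. By DESeq2, 0 of 5 tested genes were called in heart, 0 of 6 in the liver-named table and 0 of 7 in spleen, with 0, 0 and 1 at an unadjusted p under 0.05. Of all genes tested, 1.19%, 0.203% and 0.217% were called there in either direction. The 1 was Th in spleen, at 1.19 ± 0.61 in the authors' deposited table and at a mean of 19.4 normalized counts. Cyp11b2 in the brain-named table had an unadjusted p of 0.0436 at -2.22 ± 1.10 and no adjusted p in the authors' deposited table, where its mean was 6.73. The median over the 9 genes with a fold change was -0.43 for the brain-named table, against 0.04 over all genes tested. It was -0.01 for heart against 0.01, 0.08 for the liver-named table against -0.05, and 0.10 for spleen against -0.01. Genes tested are those with an adjusted p. Over the genes of the set with one, the medians were -0.45, -0.01, -0.11 and 0.16 in the same order.

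Intervals show how far these tables limit a change. For Dbh in heart, where its level was highest, the log2 fold change of -0.01 ± 0.43 in the authors' deposited table gives a 95% interval from -0.85 to 0.83. Th in the liver-named table was at -0.51 ± 0.44 in the authors' deposited table, with an interval from -1.37 to 0.36, and its mean of 3545 normalized counts implies 4159.8 in wild-type and 2929.9 in deficient libraries. Nr5a1 in spleen was at 0.53 ± 0.50 in the authors' deposited table, with an interval from -0.45 to 1.5. Star had intervals from -0.22 to 1.40 in the liver-named table and from -1.92 to 0.74 in spleen. For Cyp11b1 outside the kidney the standard errors were 1.65 to 2.40 in the authors' deposited tables, on means of 1.99 to 2.71 normalized counts, so a difference was not detectable at this depth.

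**Figure D2:**
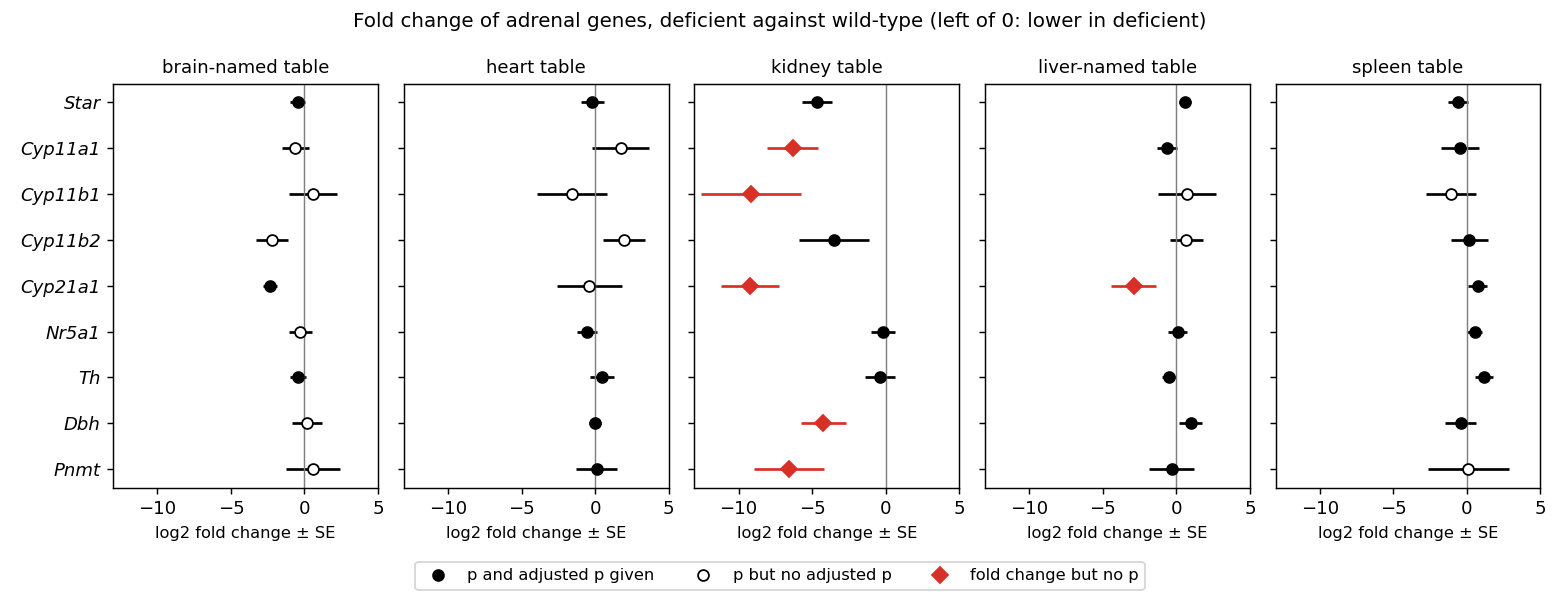
Deposited log2 fold change of deficient against wild-type mice (x axis) with its standard error (bars) for 9 adrenal genes in the 5 tables, with filled circles where an adjusted p is given, open circles where only a p is given and red diamonds where neither is given. In the kidney panel, 7 genes lie at or below -3.51 and Nr5a1 and Th near 0, while outside it Cyp21a1 of the brain-named table is at -2.37.

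In the kidney table most enzymes of both adrenal tissues had large negative values. These are the values for which the genes were chosen. Large falls without a p were not limited to adrenal genes. Counting only means of 20 or more, 169 kidney genes lacked a p and lay below a log2 fold change of -4. Ordered by mean among those 169, Cyp21a1 was at rank 1, Cyp11b1 at 2, Cyp11a1 at 3, Pnmt at 58 and Dbh at 79. Nothing is read from these ranks, since the same values guided the choice of the genes. Genotype means were computed from the deposited mean and fold change and stand for 3 libraries each, so which libraries carried the tags cannot be read from them. Star had a mean of 274 normalized counts and a log2 fold change of -4.65 ± 1.03 in the authors' deposited table, which implies 526 in wild-type and 21.0 in deficient libraries. Cyp11a1 was at -6.33 ± 1.72 in the authors' deposited table, with 553 and 6.88 implied. Cyp11b1 was at -9.14 ± 3.41 there, and the authors' deposited mean implies 820 in wild-type and 1.46 in deficient libraries. The largest negative value was that of Cyp21a1, at -9.24 ± 1.98 in the authors' deposited table, with 1149.5 and 1.90 implied, and its copy Cyp21a2-ps was at -8.47 ± 2.26. Cyp11b2 was at -3.51 ± 2.36 in the authors' deposited table, at a mean of 13.01.

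The medulla enzymes split in this table. Pnmt was at -6.55 ± 2.37 in the authors' deposited table, with 121 normalized counts implied in wild-type and 1.29 in deficient libraries. Dbh was at -4.23 ± 1.53 in the authors' deposited table, with 95.1 and 5.06 implied. Th, whose promoter is shown above beside that of Dbh, was at -0.40 ± 1.01 in the authors' deposited table, with 67.5 and 51.1 implied. Nr5a1 was likewise near 0, at -0.17 ± 0.82 in the authors' deposited table on a mean of 14.4. All 9 genes with a fold change were negative, with a median of -4.65. Over the 4 with an adjusted p the median was -1.96, against -0.01 over all genes of the table with an adjusted p. The 10 genes summed to an implied 3371.3 normalized counts in wild-type and 104 in deficient kidney libraries. In bulk tissue, the amount of adrenal tissue in a kidney sample, fewer cells of a type and less RNA per cell cannot be told apart. Nor can a smaller uncapped share of that RNA, since the values count uncapped 5' ends. None of these was tested.

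The implied deficient level of 5 genes in kidney lay below the mean over both genotypes in each other table. For Cyp11b1 it was 0.0300 ppm against 0.0369 to 0.0454 in the other 4 tables, for Cyp21a1 0.0390 against 0.0508 to 8.63, and for Pnmt 0.0265 against 0.0306 to 1.10. For these 3 genes the deficient level rests on 3.86 to 5.69 summed normalized counts. Star, at 0.433 ppm, and Cyp11b2, at 0.0432, were the others. The implied wild-type level of Star, Cyp11a1, Cyp11b1, Cyp11b2, Cyp21a1 and Pnmt was above the mean of each other table. Th, Dbh and Nr5a1 in wild-type kidney were not.

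**Figure D3:**
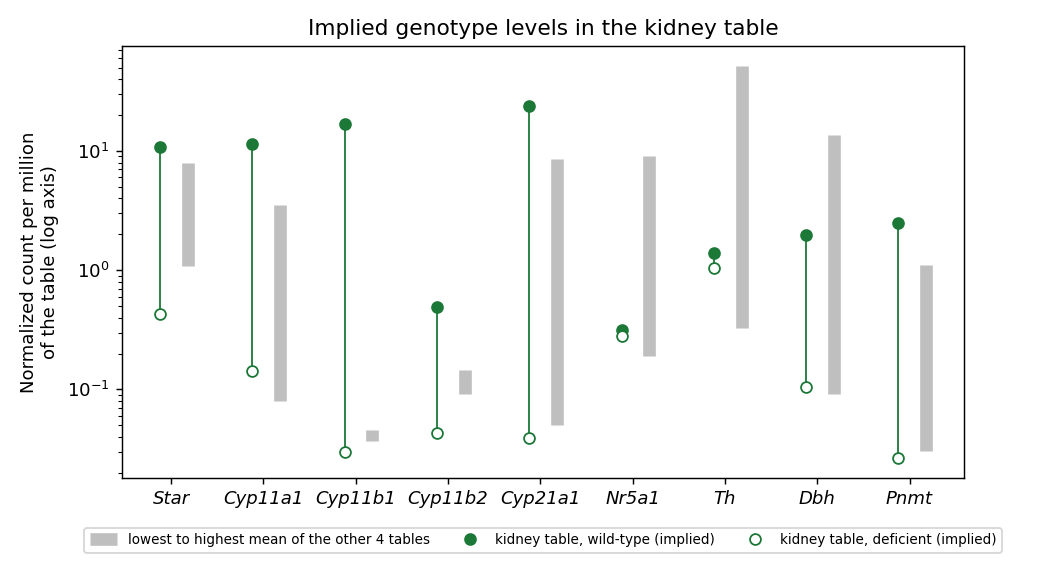
Implied wild-type (filled) and deficient (open) level of 9 adrenal genes in the kidney table, in ppm (log axis), beside the lowest to highest mean of the other 4 tables (grey). No errors are drawn because these are derived from 1 mean and 1 fold change per gene, and the gap is widest for Cyp21a1, at 23.7 against 0.0390, and narrowest for Nr5a1, at 0.314 against 0.279.

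A p was missing in the kidney table for Cyp11a1, Cyp11b1, Cyp21a1, Dbh and Pnmt, 5 of the 7 genes of the set with a mean of at least 20. Of all 18532 genes with such a mean there, 4.76% had a fold change but no p. The missing p was part of the choice of these genes, so nothing is read from the share. By default DESeq2 withholds a p where it counts a single library as an outlier. These 5 genes have a mean, a fold change and an SE without a p, which is the form that rule leaves. The settings used and the library concerned are not given in the sources used here. Of 4 genes of the set with an adjusted p, the authors' deposited table lists Star below 0.05, and it calls 0.866% of all 19630 tested genes lower and 2.07% in either direction. Star was chosen by this value, so nothing is read from its call or from those shares. The standard errors also imply a dispersion for each gene, the squared relative spread between libraries of a genotype beyond counting error. It was 8.04 for Cyp11b1, 3.67 for Pnmt, 2.56 for Cyp21a1, 2.07 for Cyp11a1 and 1.59 for Dbh, against 0.741 for Star and 0.722 for Th. Over the 7428 kidney genes with a mean of 100 to 1000 the median dispersion was 0.361 and the 95th percentile 1.46. Cyp11a1, Cyp11b1, Cyp21a1 and Star have means in that window, while Dbh, Pnmt and Th have lower ones, and these dispersions come from the same comparison as the choice of the genes.

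Of 66 other genes of adrenal pathways, sorted by role, 2 were called in the kidney table, both lower, of 54 tested, beside 0.866% called lower among all tested genes. They were Agtr1b, an angiotensin II receptor of the adrenal cortex, and Adrb3, an adrenaline receptor of fat cells. The authors' deposited table gave -3.58 ± 0.93 for Agtr1b (adjusted p = 0.0127) and -3.44 ± 0.71 for Adrb3 (adjusted p = 3.88e-04). The lists were chosen with earlier results of these data known, so these 2 calls are a description and not support. In the brain-named, heart, liver-named and spleen tables, DESeq2 called 0 of 50, 49, 59 and 56 tested genes. Of all genes tested there, 0.414%, 1.19%, 0.203% and 0.217% were called in either direction. Of the list genes, 3, 3, 5 and 4 had an unadjusted p below 0.05, and 7 of 54 in kidney. That share over all genes is not given, so nothing is read from these counts or from those of the lists below. The median log2 fold change of the 64 with one in kidney was -0.09, against -0.01 over all tested genes, which leave out those without an adjusted p.

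Among other steroid enzymes and electron carriers, 0 of 8 tested were called in kidney by DESeq2, with 1 at an unadjusted p under 0.05. That gene was Hsd3b1, the 3-beta-hydroxysteroid dehydrogenase of the cortex, at -2.76 ± 1.17 in the authors' deposited table (adjusted p = 0.265), with 2250.8 normalized counts implied in wild-type and 333 in deficient libraries. Its relative Hsd3b6 was at -0.27 ± 0.36 in the authors' deposited table, and Akr1b7, an aldo-keto reductase of the mouse cortex, at -1.69 ± 1.93. Cyp17a1, which adult mouse adrenals lack, had a mean of 1.98 in kidney. Fdx1, Fdxr and Por, which pass electrons to steroid enzymes in many tissues, were at -0.28, -0.68 and -0.11 in the authors' deposited table. Cholesterol supply genes had a kidney median of 0.09 over 7 with a fold change, and 0 of 7 were called by DESeq2, with 1 at an unadjusted p under 0.05. That gene was Soat1, which esterifies cholesterol, at -0.80 ± 0.35 in the authors' deposited table (adjusted p = 0.284).

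Regulators of the cortex differed in sign, with 5 of 8 negative in kidney, and Agtr1b was the 1 of 6 tested that was called. Mrap, which carries Mc2r to the cell surface, was at -2.12 ± 1.65 with no p in the authors' deposited kidney table. Nr0b1, a repressor of Nr5a1 also known as DAX-1, was at 6.85 ± 2.03 with no p in the authors' deposited table, which implies 1.31 normalized counts in wild-type and 151 in deficient libraries, the opposite direction to the enzymes. Its implied dispersion was 2.60, near that of Cyp21a1.

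Chromaffin genes other than the 3 of the set were mixed in kidney, with 10 of 18 positive and a median of 0.31. By DESeq2 0 of 12 tested were called, with 1 at an unadjusted p under 0.05. Chga, a secretory granule protein of chromaffin cells and neurons, was that gene, at -3.57 ± 1.17 in the authors' deposited table (adjusted p = 0.0826), with 985 and 83 normalized counts implied. Its relative Chgb was at -3.11 ± 1.29 with no p in the authors' deposited table. Slc18a1, the vesicle amine transporter of chromaffin cells, was at -0.19 ± 0.43 in the authors' deposited table on a mean of 4370, and Ddc, the decarboxylase between Th and Dbh, at 0.49, on a mean of 1869.

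Receptors of adrenal hormones had a kidney median of 0.09 and glucocorticoid-responsive genes a median of -0.13. Besides Adrb3, DESeq2 called 0 of the 9 other tested receptors and 0 of the 8 tested responsive genes, with 1 of each at an unadjusted p under 0.05. These were Adra2a, an inhibitory adrenaline receptor, and Mt2, a metallothionein. The authors' deposited table gave -2.78 ± 1.28 for Adra2a (adjusted p = 0.331) and -4.15 ± 1.71 for Mt2 (adjusted p = 0.238). Nr3c1, the glucocorticoid receptor, was at 0.37 and Fkbp5, a target of it, at 0.26 in the authors' deposited table.

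Markers of other cell types had kidney medians on both sides of 0, and their part in the adrenal values was not tested. The 8 adipocyte markers summed to an implied 31737.5 normalized counts in wild-type and 39071.8 in deficient kidney libraries, with 6 of 8 positive and 0 at 0. The 2 negative ones, named after their values were seen, were Plin1 at -1.01 and Ucp1 at -0.71 in the authors' deposited table. The 10 kidney markers had 9 positive, a median of 0.31 and implied sums of 401660.9 and 488133.8. The 8 neuron markers, which bear on Th, Dbh and Chga, had 6 negative and a median of -0.43. Hepatocyte markers were negative for 8 of 8 genes, with a median of -0.46 and implied sums of 80889 and 59643.3, and cardiomyocyte markers for 6 of 7, with a median of -0.63 and implied sums of 13655.7 and 9014.8. The 5 urothelium markers had 3 positive, a median of 0.12 and implied sums of 1822.8 and 1383.2. Leydig cell markers, from another steroid tissue, summed to 35.2 normalized counts in kidney. The 3 with a fold change had a median of 1.56, with 1 negative. Insl3 among them was listed at 0 in all 5 tables, like Mc2r, so its 0 is not read as an absence. Pancreatic acinar genes summed to 895 ppm in kidney with a median of -0.11.

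**Figure D4:**
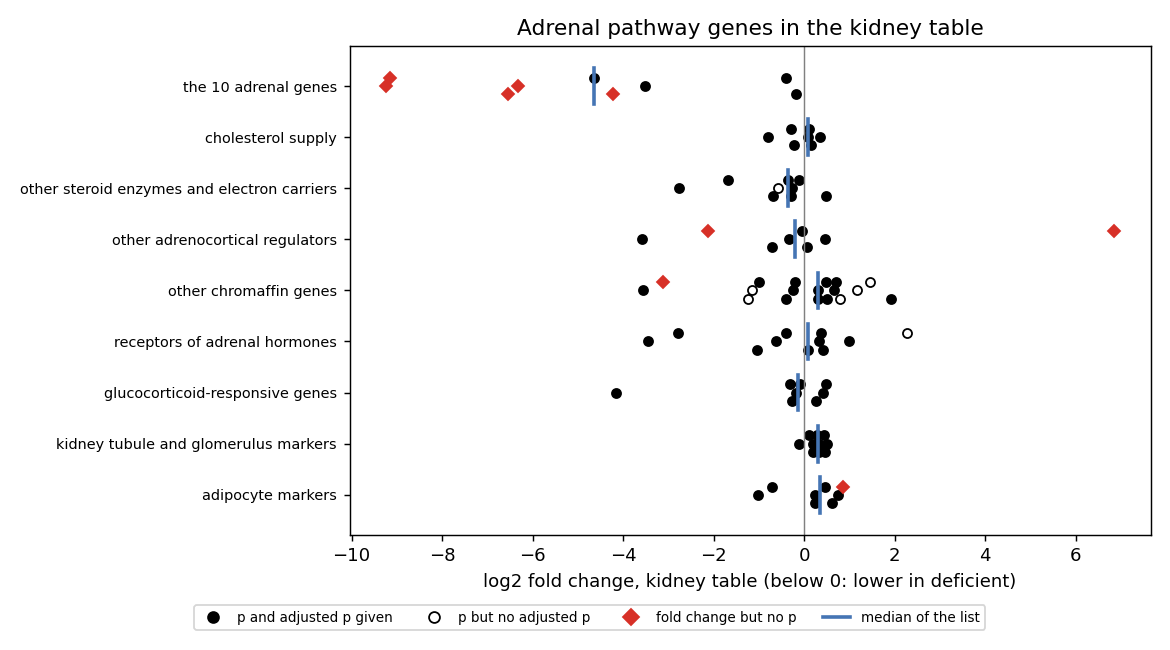
Deposited log2 fold change in the kidney table (x axis) for each gene of 9 lists, with symbols by whether a p is given and a blue bar at each list's median. The adrenal genes have a median of -4.65, kidney and adipocyte markers medians of 0.31 and 0.35, and Nr0b1 stands alone at 6.85.

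Genes with levels most like those of Star and Th across the 5 tables are given with their kidney fold changes as a description, since Star was chosen by its own. Likeness was the Euclidean distance in log2(level in ppm + 0.1) over the 5 tables, among 23352 genes whose mean reached 20 in some table. The 5 nearest to Star were Zfp335os, Gm11957, Polr2g, Olfml3 and Gpnmb, at distances of 0.691 to 0.821. Their kidney log2 fold changes in the authors' deposited table ran from -0.18 for Olfml3 to 1.09 for Zfp335os. The 5 nearest to Th were Dpf1, Elmod1, Necab3, Nptx2 and Tram1l1, at distances of 0.758 to 0.991. Theirs ran from -2.71 for Dpf1 to 1.44 for Tram1l1 in the authors' deposited table, on either side of the -0.40 of Th.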

How the data were processed

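The authors counted tags per gene with featureCounts of Subread 2.0.3 on build GRCm39 and used DESeq2, per the submitters' processing notes; its version and model are not given in the sources used here. The deposited mean is a signal, a count divided by size factors and averaged over an organ's libraries. The deposited fold change and SE are on the log2 scale, the deposited Wald score is their ratio, and each p-value, adjusted or not, is as the authors deposited it. Of each table, 1 row without a gene name was left out. The strand setting of the counting is not given in the sources used here.

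The adjusted p was used at a false discovery rate of 5%. Genotype means and dispersions were derived for equal numbers per genotype. The derivation and the z test were checked on simulated data. The simulated dispersions and fold changes were smaller than those of several of the 10 genes in kidney, so the check does not cover those values. For the z test, values were drawn from the deposited standard errors, so that check could not show whether the standard errors are right. The z test between tables was added after the data were seen. Members and lists were chosen with earlier results of these data known. Named are the 10 genes, list genes past the threshold, up to 4 large kidney values per list, copies of Cyp21a1, and the 5 genes most like Star and Th. C4a, C4b, Actc1, Insl3 and list genes with smaller values were named after their values were seen. Computation was in Python 3.11.15 (scipy 1.17.1, pandas 2.3.3, numpy 2.4.6), and plots were made with matplotlib 3.10.9.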

Additional observations from a re-analysis of the deposited data

How the results depend on the processing

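The call of Cyp21a1 in the brain-named table held at rates of 1% and 10%, with adjustment over every gene with a p or over genes with a mean of at least 20, with a log2 change of at least 1, and with the Wald statistic rescaled by its robust spread. The adjusted p of Cyp21a1 ran from 0.00216 to 0.0403 over these. No member was called in the heart, liver-named or spleen table under any of them. Centring on tested genes with a mean of at least 20 or on tissue markers turned the sign of no median over the members, and with tissue markers the brain-named median went from -0.43 to -0.83. The liver-named median turned from 0.08 to -0.11 over members with an adjusted p and -0.21 over those with a mean of at least 20. The kidney median was -1.96 over the 4 members with an adjusted p in place of -4.65, since that leaves out the 5 without a p. The highest table was the same for 8 of 9 members on the scale of the mean normalized count, where Star was highest in the liver-named table, and for 7 of 9 without the 50 highest genes. With a pseudocount of 1 ppm, 4 of 5 genes most like Star and 3 of 5 most like Th were shared. No paired analysis was possible because the tables hold 1 comparison per organ and no values per library, and for the same reason no library could be left out.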

Other observations

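Other genes of the same pathways had their highest values in several tables. Cyp17a1, the 17-alpha-hydroxylase of androgen synthesis, had a mean of 397 normalized counts in the brain-named table, which holds hepatic RNA, and of 1.98 to 19.65 in the other 4. Slc18a1 had a mean of 4370 in kidney and of 9.12 to 132 elsewhere. Kcnk3, a potassium channel of the aldosterone-making zone, was highest in heart, at 903.5 parts per 1000000 (ppm), against 113.6 in the liver-named table. Slc6a3 and Drd2, markers of dopamine neurons, were highest in the liver-named table beside Th, at 5.83 and 65.55 ppm. Pitx3 and Ddc of the same list were highest in the brain-named table, at 5.94 and 44.18 ppm, with Ddc at 15.35 in the liver-named table.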
